A study of Homo sapiens with 2 samples.

Results

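Receptors that bind proteins at the cell surface and carry them inside by endocytosis were examined in liver progenitors grown from human embryonic stem cells. The 7 genes, chosen by name, were CUBN, AMN, LRP2 and DAB2, which serve protein uptake in visceral endoderm and kidney, and ASGR1, ASGR2 and FCGRT, which serve hepatocytes. All 7 were matched, 1 identifier each, among the 57158 genes listed for 2 RNA sequencing libraries of 1 group. The cells were of the embryonic stem cell line CyT49. Definitive endoderm at day 2 was grown in suspension in medium with 0.2% FBS, with BMP4 at 50 ng/ml and FGF2 at 10 ng/ml given for 6 days, and the columns are named for day 8. No untreated or earlier sample was analysed here, so levels are described within this group and no change was measured. A single cell line was used, and whether separate cultures gave the libraries is not stated in the labels.

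Levels are RPKM, reads scaled to gene length and sequencing depth, and are set side by side between genes here. The length used for genes with several exons, as all members are, could not be recovered. Its part in the ratios and the order of genes was not tested. Values under 0.5 RPKM are listed as 0.1, called the floor here. From the spacing of the values, the depth was 25182543 reads for library 1 and 25264653 for library 2. Over 942 genes with whole read numbers, the difference between the libraries had 1.08 times the variance of counting alone, so they were counted as 1 sample. Their gap is read as technical error and both values are given in place of a standard deviation. Detection means at least 1 RPKM in each of the libraries. In bulk RNA, a low level in every cell and a higher level in a share of the cells cannot be told apart.

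Cubilin, encoded by CUBN, is a very large extracellular protein without a membrane anchor of its own. Amnionless, encoded by AMN, anchors it and brings it to the surface, and the pair is called cubam. Megalin, encoded by LRP2, is a membrane receptor of the LDL receptor family that takes up many ligands and helps to internalize cubam, and DAB2 is an adaptor that links such receptors to clathrin coats. In rodents these proteins let visceral endoderm absorb maternal proteins, in the kidney they recover filtered proteins, and in the ileum cubam takes up vitamin B12 bound to intrinsic factor. ASGR1 and ASGR2 are the subunits of the asialoglycoprotein receptor, a hepatocyte lectin that clears glycoproteins whose sialic acid has been lost. FCGRT is the heavy chain of the neonatal Fc receptor, which pairs with B2M and returns albumin and IgG from endosomes to the blood.

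RefSeq promoter windows were found for 5 of the 7 genes. Those of CUBN, AMN and DAB2 are shown because the genes of both cubam subunits and of their adaptor had unequal RNA levels. Each line gives the 250 bases before the RefSeq start, 5′ to 3′ on the strand of the gene. Capitals mark matches, searched on both strands, to 6 motifs. CAAAGTCC and CAAAGGTCA are bound by HNF4, and the second also by other paired nuclear receptors. GTTAAT is part of the site of the HNF1 factors. TAAACA is the core site of FOXA proteins. AGATAA is bound by the zinc finger family of GATA4 and GATA6. A core promoter element is spelled TATAAA.
CUBN: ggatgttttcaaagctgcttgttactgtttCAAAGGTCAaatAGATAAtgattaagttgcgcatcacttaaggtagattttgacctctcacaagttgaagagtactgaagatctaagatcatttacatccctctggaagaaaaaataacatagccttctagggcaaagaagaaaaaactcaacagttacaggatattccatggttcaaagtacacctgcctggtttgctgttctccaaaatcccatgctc
AMN: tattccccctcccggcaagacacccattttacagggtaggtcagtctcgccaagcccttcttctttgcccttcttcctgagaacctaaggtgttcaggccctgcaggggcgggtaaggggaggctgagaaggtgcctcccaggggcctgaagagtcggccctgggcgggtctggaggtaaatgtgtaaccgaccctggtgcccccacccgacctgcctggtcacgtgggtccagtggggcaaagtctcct
DAB2: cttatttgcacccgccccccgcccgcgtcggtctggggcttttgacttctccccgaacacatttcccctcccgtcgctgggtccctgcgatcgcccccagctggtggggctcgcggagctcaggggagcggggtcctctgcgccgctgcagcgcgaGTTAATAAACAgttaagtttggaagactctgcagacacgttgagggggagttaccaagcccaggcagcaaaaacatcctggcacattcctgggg

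The windows come from the RefSeq table of GRCh38.p14 and were placed by exact match on GRCh37, the build also called hg19, at chr10:17171811-17172060 (minus strand), chr14:103388750-103388999 (plus strand) and chr5:39425083-39425332 (minus strand). The CUBN window held CAAAGGTCA, with its first base 220 bases before the start, and AGATAA, with its first base 208 bases before it. CAAAGGTCA was present in 0.339% of all 35116 windows of this length and AGATAA in 9.17%. The DAB2 window held GTTAAT and TAAACA, which overlap by a base and are present in 6.23% and 10.99% of windows. The DAB2 and FCGRT windows lie inside the annotated loci of these genes, which begin upstream of the RefSeq starts used. Sequence before other starts of these genes was not searched. CAAAGTCC, with a match in 1.02% of windows, and TATAAA, with 10.7%, matched none of the members' windows. The AMN, LRP2 and FCGRT windows held none of the 6 motifs. GC content was 38.0% in the CUBN window, against 61.6% in that of AMN, 62.4% in that of DAB2, 66.8% in that of LRP2 and 55.6% in that of FCGRT, and the median over all windows was 58.0%. The motifs were chosen with the windows in view, and a match is a string of letters, not a measured binding site. Of the factors that bind such motifs, FOXA2 stood at 72.1 RPKM, HNF4A at 44.7, GATA4 at 43.4 and GATA6 at 42.6.

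All 4 genes of the cubilin and megalin route were detected. CUBN had 7.29 RPKM in library 1 and 7.10 in library 2. AMN had 18.8 RPKM in library 1 and 17.8 in library 2. Transcripts of both subunits of cubam were thus present, with AMN the higher in each library. Protein was not measured.

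CUBN lay on the log2 scale 1.37 below AMN in library 1 and 1.33 below it in library 2. Its RNA level was 0.393 times that of AMN. The gap of 11.1 RPKM between their means was larger than the widest gap between libraries, 0.940 RPKM for AMN. CUBN (ENSG00000107611.10) lies on chromosome 10 from 16865965 to 17171810 and its main transcript has 67 exons and 11927 bases, while AMN (ENSG00000166126.6) lies on chromosome 14 from 103389000 to 103399933 and its main transcript has 12 exons and 1550 bases. Coverage along long and short transcripts can differ in poly(A)-selected libraries, and its part in this ratio was not tested. The far end of the AMN locus overlaps 760 exonic bases of CDC42BPB, a kinase gene on the opposite strand with 25.5 RPKM in each library. None of these bases lie in the main AMN transcript. The library kit keeps strand, but whether reads were counted by strand is not given in the sources used here.

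LRP2 had 9.03 RPKM in library 1 and 8.78 in library 2. By RNA, LRP2 was therefore the second highest of the 4, and its level was 1.24 times that of CUBN in both libraries (log2 ratio 0.31 in each). LRP2 (ENSG00000081479.8) lies on chromosome 2 from 169983619 to 170219044, with 79 exons and 15657 bases in its main transcript. By that length the value stands for about 3560 reads in library 1, the most of any member, so its counting error was the smallest.

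DAB2 had 3.33 RPKM in library 1 and 3.04 in library 2. This adaptor gene was the lowest of the 4, and LRP2 exceeded it 2.71 times in library 1 and 2.89 times in library 2. DAB2 (ENSG00000153071.10) lies on chromosome 5 from 39371777 to 39462402. Its gap between libraries, 9.01% of the mean, was the widest of the 7 members in proportion, and was 1.19 times the counting error estimated from about 364 and 334 reads. Across the 7 members that multiple ran from 0.0741 to 1.19, so no member's libraries stood far apart for their depth.

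**Figure D1:**
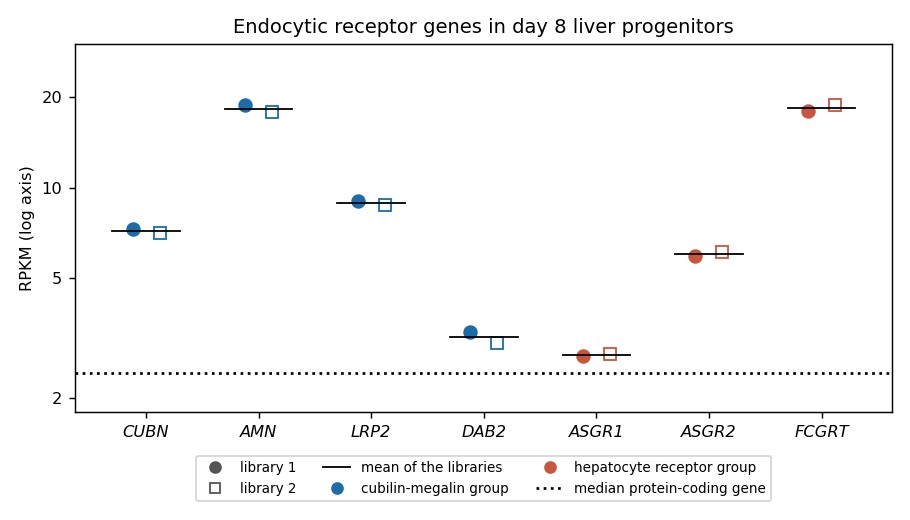
RPKM of the 7 receptor genes on a log axis, with filled circles for library 1, open squares for library 2 and a bar at their mean; blue marks the cubilin and megalin genes, red the hepatocyte receptors, and the dotted line the median protein-coding gene at 2.42 RPKM. AMN and FCGRT lie together near 18 RPKM, and ASGR1 at 2.79 lies closest to the median line.

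Both asialoglycoprotein receptor subunits were detected, at unequal levels. ASGR2, the minor subunit in hepatocytes, had 5.94 RPKM in library 1 and 6.11 in library 2. ASGR1, the major subunit there, had 2.77 RPKM in library 1 and 2.80 in library 2. By RNA, ASGR2 was thus the higher in these cells. Minor and major name the protein subunits of the hepatocyte receptor, and protein was not measured here.

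ASGR2 exceeded ASGR1 2.14 times in library 1 and 2.18 times in library 2, a log2 ratio of 1.10 and 1.12. The gap was larger than the difference between libraries for either gene, which was 0.171 RPKM for ASGR2 and 0.0304 for ASGR1. The levels stand for about 216 and 223 reads of ASGR2 and about 91 and 93 of ASGR1, the fewest of any member. ASGR1 (ENSG00000141505.7, 7076750 to 7082883) and ASGR2 (ENSG00000161944.12, 7004641 to 7019019) are neighbouring protein-coding genes on the minus strand of chromosome 17, 57731 bases apart. The next protein-coding gene beyond ASGR2, at 21015 bases and on the same strand, is CLEC10A. This related lectin of macrophages and dendritic cells was at the floor in both libraries. DLG4, on the other side of ASGR1 and best known from synapses, had 5.38 and 5.83 RPKM.

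FCGRT had 18.0 RPKM in library 1 and 18.8 in library 2, the highest mean of the 7. B2M, the light chain that FCGRT needs and that MHC class I molecules share, had 32.6 RPKM in library 1 and 32.5 in library 2. FCGRT therefore stood at 0.552 times its light chain in library 1 and 0.579 times in library 2. ALB, whose product FCGRT protects from degradation, had 6.84 RPKM in library 1 and 6.53 in library 2, below FCGRT in each. FCGRT (ENSG00000104870.8) lies on chromosome 19 from 50010073 to 50029685.

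**Figure D2:**
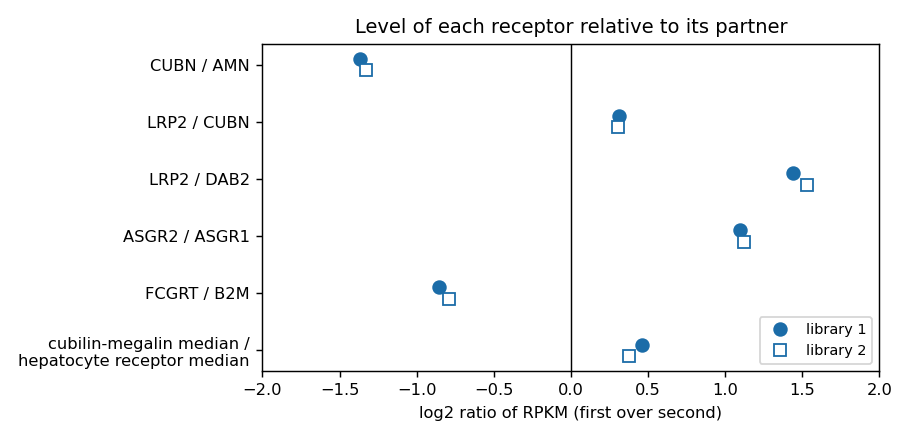
Log2 ratio of RPKM between each gene and its partner (first over second), with circles for library 1 and squares for library 2. CUBN lies 1.33 to 1.37 below AMN, ASGR2 1.10 to 1.12 above ASGR1, and the libraries lie close together in every pair.

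By mean level the order was FCGRT, AMN, LRP2, CUBN, ASGR2, DAB2 and ASGR1. FCGRT and AMN, 0.0782 RPKM apart, did not differ beyond their libraries and changed places in library 1. The other 5 neighbouring pairs were farther apart than the libraries of either gene, but DAB2 and ASGR1 only narrowly. Their gap of 0.397 RPKM, against a widest library gap of 0.287, was 0.19 on the log2 scale with a counting error of 0.12. The median of the cubilin and megalin genes was 8.16 RPKM in library 1 and 7.94 in library 2, and that of the hepatocyte receptors 5.94 and 6.11. The 2 sets overlapped, since FCGRT lay above LRP2, CUBN and DAB2, and DAB2 lay below ASGR2.

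The 7 of 7 members detected stand beside 59.8% of protein-coding genes that reached the same limit. All 7 also reached 0.5 RPKM, as did 65.1% of protein-coding genes. At 5 RPKM or more there were 5 of 7 members, beside 35.4% of protein-coding genes, and at 10 RPKM or more 2 of 7, beside 20.2%. Among 19344 protein-coding genes ranked by mean RPKM, FCGRT and AMN both stood at percentile 89.3, LRP2 at 76.9, CUBN at 72.2, ASGR2 at 68.1, DAB2 at 54.7 and ASGR1 at 52.3. The members' median was 7.19 RPKM, beside 2.42 over all protein-coding genes. Because the genes were picked with results of these data known, these shares describe the members and were not tested.

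Of the chaperones, adaptors and helpers of cubilin and megalin, 14 of 15 were detected, with a median of 7.81 RPKM. For this list and each one below, the share of all protein-coding genes that reached the same limit was 59.8%. The endoplasmic reticulum chaperone HSP90B1 stood highest at 237 RPKM, followed by the scaffolds NHERF1 at 83.4 and PDZK1 at 40.9, which hold membrane proteins at the apical surface. LRPAP1, the chaperone that keeps megalin and its relatives from binding ligands too early, had 19.8 RPKM in library 1 and 20.6 in library 2, above LRP2 in each. MAPK8IP2 was the only gene of this list at the floor, and ANKRA2, which binds the tail of megalin, stood at 3.82 RPKM.

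Among the ligands described for cubilin or megalin, 17 of 24 were detected, or 70.8%, beside 59.8% of all protein-coding genes. APOA1, a cubilin ligand carried on high-density lipoprotein, stood at 2188 RPKM. APOE stood at 1207, the thyroid hormone and retinol carrier TTR at 776 and the retinol carrier RBP4 at 327. HP, LCN2, SCGB1A1 and MB were at the floor in both libraries, and GC, the vitamin D carrier, was above it in library 2 only. The receptors were thus expressed beside transcripts of several of their own plasma ligands in the same bulk RNA, and whether the same cells held both was not measured.

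Vitamin B12 genes, a list added after the other values were seen, were detected in 12 of 13 cases, beside 59.8% of protein-coding genes. The intrinsic factor gene CBLIF, whose product cubam binds in the gut, stood at 1.44 RPKM. CD320, the receptor by which most cells take up B12, had 16.9 and 16.6 RPKM, which was above CUBN in each library. Its carrier TCN2 stood at 3.67 and 3.13 RPKM, and the other carrier, TCN1, at 7.52 and 7.24. MMADHC, which sorts B12 within the cell, was the highest of the list at 17.6 RPKM, and MMAA, of the mitochondrial branch, the lowest at 0.544.

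Within the LDL receptor family and its sorting relatives, 12 of 19 other genes were detected. This share, 63.2%, was near the 59.8% of all protein-coding genes. Of the 19, 6 stood above LRP2 and 13 below it. LRP1, the general scavenger receptor of hepatocytes, had 40.8 RPKM in library 1 and 40.6 in library 2. LRP5, a WNT co-receptor, stood at 34.4 RPKM and LRP3 at 13.9. VLDLR, LRP1B and SORCS3 were at the floor. LRP2 therefore stood at 0.219 times the level of LRP1, the highest of the family.

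Most listed genes of the machinery that carries such receptors were detected, beside 59.8% of all protein-coding genes. Of clathrin coat genes and adaptors 25 of 27 were detected, led by the AP-2 subunit AP2M1 at 54.1 RPKM, EPN1 at 45.3, the clathrin light chain CLTA at 39.7 and the heavy chain CLTC at 36.6. EPN3 and STON2 were at the floor. Compared with these, DAB2 was low: 20 of the 27 stood above it, and its relative DAB1, known from neurons, had 3.01 RPKM, close to DAB2 itself. All 25 genes of endosome sorting and recycling were detected, among them RAB11B at 56.9, RAB7A at 49.6, RAB25 at 47.2 and RAB5C at 38.0 RPKM, with the early endosome tether EEA1 lowest at 2.50.

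Among the lectins related to ASGR1 and ASGR2 and other glycan receptors, 6 of 17 were detected and 11 were at the floor. Of all protein-coding genes, 59.8% were detected. IGF2R, which binds mannose 6-phosphate on lysosomal enzymes, led at 31.7 RPKM, followed by the transport lectin LMAN1 at 20.5, M6PR at 17.6 and LGALS3 at 9.98. CLEC10A, CLEC4F, CLEC4G, CLEC4M, CD209, CD207, FCER2 and MRC1, C-type lectins chiefly of immune and endothelial cells, were all at the floor. Enzymes that add or remove the sialic acid hiding galactose from the receptor were detected in 11 of 14 cases, beside the same 59.8%. The lysosomal sialidase NEU1 stood at 16.1 RPKM, the sialyltransferases ST3GAL1 at 12.7 and ST6GAL1 at 6.97, and CMAS, which activates sialic acid, at 11.0, whereas ST6GAL2, NEU2 and NEU4 were at the floor.

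Apart from B2M and ALB, the genes listed around FCGRT were low. Of the 11, 3 were detected, beside 59.8% of protein-coding genes. The 1 besides B2M and ALB was TRIM21, a cytosolic antibody receptor, at 2.38 RPKM. HFE and AZGP1, of the same structural family as FCGRT, PIGR, which carries polymeric immunoglobulin, and the Fc gamma receptors FCGR1A, FCGR2A, FCGR2B and FCGR3A were at the floor. FCGRT was thus high in a culture in which 8 of the 11 listed genes were not above 0.5 RPKM. Of protein-coding genes, 65.1% reached 0.5 RPKM in both libraries.

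Of 15 other receptors for plasma proteins, hormones and particles in liver, 13 were detected, beside 59.8% of protein-coding genes. Their median was 3.91 RPKM. LSR, a lipoprotein receptor, stood at 55.8 RPKM, LIFR at 25.9, SCARB2 at 24.5 and the transferrin receptor TFRC at 21.1. FCGRT and AMN each had 4 of the 15 above them and CUBN had 6. TFR2, the liver form of the transferrin receptor, had 0.717 and 0.756 RPKM, and CD36 was at the floor.

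**Figure D3:**
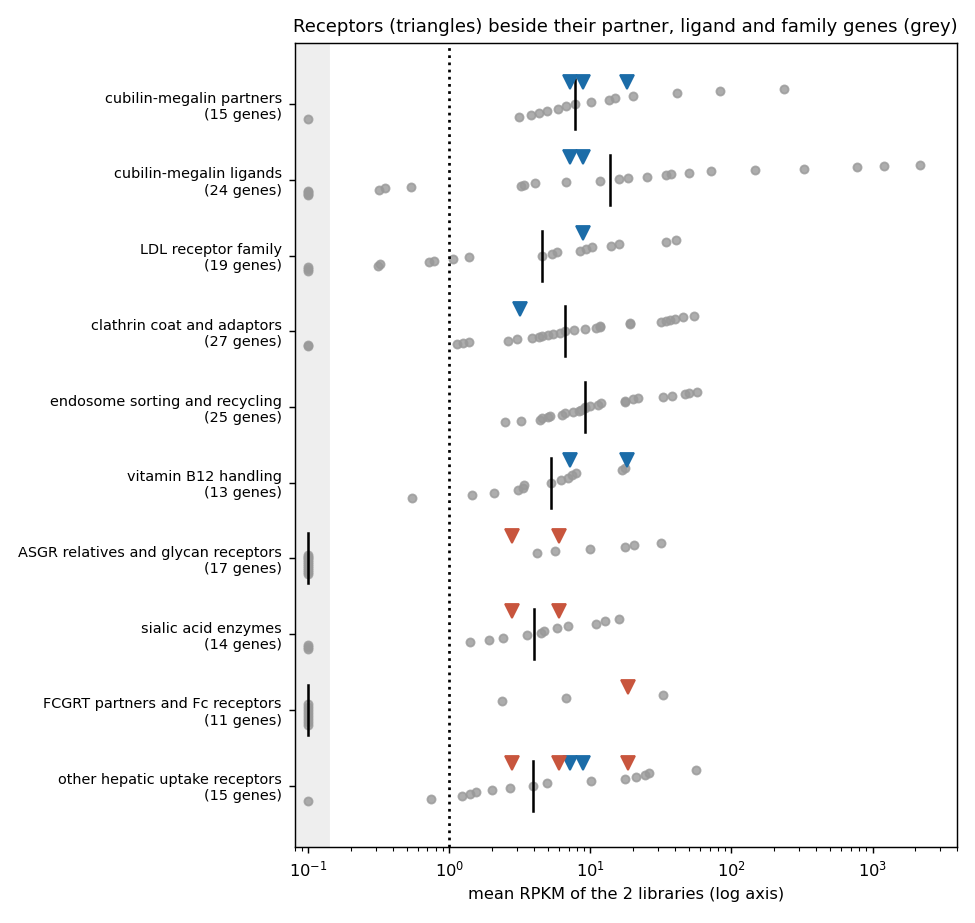
Mean RPKM of the 2 libraries on a log axis for the genes of each list (grey points), with a black bar at the list's median and triangles for the receptor genes the list belongs to (blue, cubilin and megalin genes; red, hepatocyte receptors). The dotted line is the limit of 1 RPKM, the shaded band holds genes at the floor of 0.1, and a gene at the floor in 1 library is averaged with 0.1. LRP2 lies among the upper LDL receptor family members, while 11 lectins and glycan receptors beside ASGR1 and ASGR2 lie at the floor.

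Markers of cell types that use these receptors were read in the same libraries. Beside each marker list stand the 59.8% of protein-coding genes that reached 1 RPKM and the 65.1% that reached 0.5 RPKM. Of visceral endoderm and yolk sac markers 18 of 21 were detected, with summed levels of 5017 RPKM in library 1 and 5009 in library 2, led by APOA1, TTR, AFP at 706 RPKM and SERPINA1 at 365. SOX17, an endoderm factor, had 2.63 and 3.08 RPKM, and CER1 and CITED1 were at the floor. Many of these genes are shared with liver, so the list does not separate yolk sac from hepatic cells. Of mature hepatocyte markers 6 of 18 were detected, namely TTR, SERPINA1, ALB, CPS1 at 4.06 RPKM, TDO2 at 3.06 and ARG1 at 2.56, while CYP3A4, CYP7A1 and TAT were among the 12 at the floor. ASGR1 and ASGR2 were therefore expressed in a culture in which most listed genes of mature hepatocytes were under 0.5 RPKM.

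Kidney proximal tubule markers were detected in 1 of 13 cases, GGT1 at 4.75 RPKM, and their summed level was 9.73 RPKM in library 1 and 9.86 in library 2. At a limit of 0.5 RPKM the count was 7 of 13, and in library 2 alone at 1 RPKM it was 2, through SLC5A2, the glucose carrier of that tubule, at 0.952 RPKM in library 1 and 1.02 in library 2. The organic anion carrier SLC22A6 had 0.940 and 0.930 RPKM, the amino acid carriers SLC6A19 and SLC7A9 averaged 0.727 and 0.585, the water channel AQP1 0.650 and the kidney factor PAX2 0.560, all above the floor in both libraries. The other 6, SLC34A1, SLC5A12, SLC22A8, SLC3A1, UMOD and PAX8, were at the floor. Of ileal enterocyte markers 1 of 10 was detected, CDX2 at 2.12 RPKM, with SLC10A2 and FABP6 at the floor and summed levels of 3.03 and 3.01 RPKM.

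Macrophage and Kupffer cell markers were detected in 2 of 10 cases, CD68 at 3.41 RPKM and CD163 at 1.22, with PTPRC, CSF1R and TYROBP at the floor and summed levels of 5.72 and 5.14 RPKM. Of sinusoidal endothelium markers 1 of 9 was detected, KDR at 1.61 RPKM, with STAB2 and LYVE1 at the floor and summed levels of 2.40 and 2.86 RPKM. These are cell types in which DAB2 and FCGRT are also known. Placenta and trophoblast markers were detected in 2 of 9 cases, CGA at 136 RPKM and GATA3 at 10.3, with KRT7 and PSG1 at the floor and summed levels of 144 and 149 RPKM. What part any of these cells had in the levels of the receptors was not tested.

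**Figure D4:**
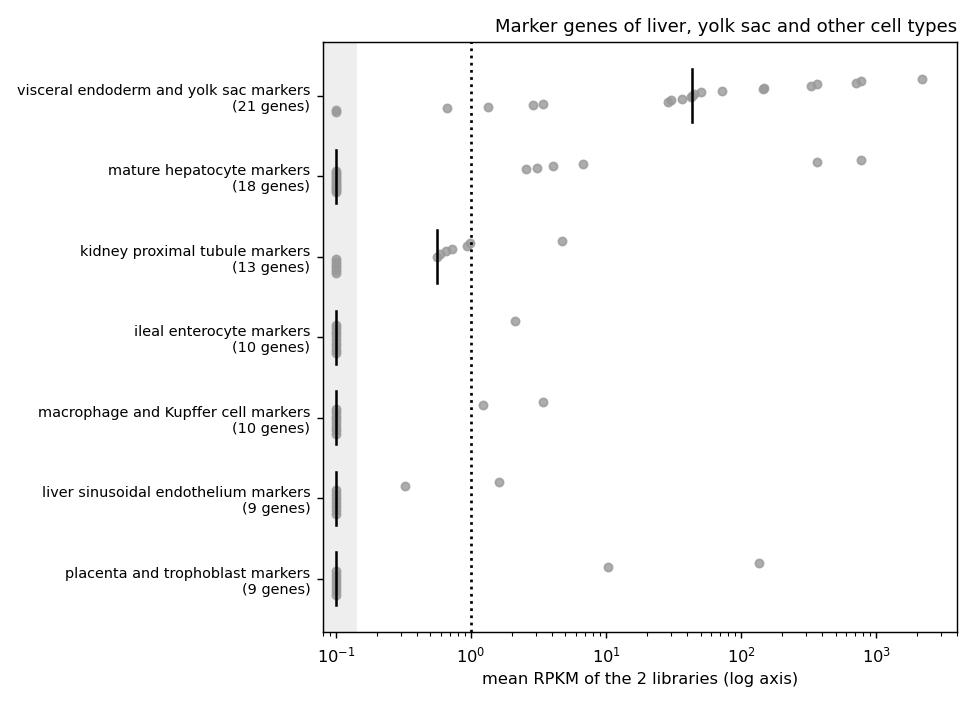
Mean RPKM of the 2 libraries on a log axis for marker genes of 7 cell types, with a black bar at each list's median, the dotted line at 1 RPKM and the shaded band for genes at the floor of 0.1. Visceral endoderm and yolk sac markers, many of them shared with liver, have a median of 43.4 RPKM. The median of the mature hepatocyte, ileal, macrophage, endothelial and trophoblast lists is at the floor. TTR and SERPINA1 belong to both the yolk sac and the mature hepatocyte lists.

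Further protein-coding neighbours of the members on their chromosomes ran from the floor to 8.59 RPKM. DHRS9 beside LRP2, TRDMT1 beside CUBN and the complement gene C9 beside DAB2 were at the floor, and BBS5, on the other side of LRP2, had 0.973 and 0.853 RPKM. RSU1, the other neighbour of CUBN, had 4.05 and 4.23 RPKM, below CUBN in each library. RCN3, beside FCGRT, had 7.27 and 7.53 RPKM, and TRAF3, upstream of AMN, had 8.78 and 8.39 RPKM. EXOC3L4, on the other side of AMN, stood at 1.59 RPKM and TTC33, on the other side of DAB2, at 2.62 RPKM.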

How the data were processed

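Strand-specific poly(A) RNA libraries were made with dUTP marking and amplified without molecular identifiers, per the labels' protocols. The deposited table gives RPKM values that the authors scaled to gene length and depth. Sailfish and hg19 are named in the series description, and STAR 2.3.0e, Cufflinks 2.2.0 and FastQC 0.10.1 in the submitters' processing notes; which tool gave the values is not given in the sources used here. In the table, no value lay between 0.1 and 0.5 RPKM.

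Identifiers were joined without version to GENCODE release 44 on GRCh37, and 54428 of 57158 (95.2%) matched. Values of single-exon genes are multiples of 1 read divided by a length of end minus start. Depth was set so that most values under 500 reads came out whole (tolerance 0.02 of a read; 81.8% did in library 1, 81.9% in library 2). Genes with several exons gave no whole reads, so no count model was used. Reads of members are estimates from the main transcript's length in GENCODE, and counting errors from them cover counting only. The library comparison used genes with a mean of 50 reads or more and was tested on simulated data.

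Members and lists were chosen with earlier results of these data known. There were 9 pathway and 7 marker lists with 245 symbols, of which 241 were matched; GIF, PECAM1 and CGB were among those not analysed here under those symbols. Named are all members and, per list, the 4 highest and up to 3 lowest genes, with B2M, ALB, LRPAP1, CLEC10A, intrinsic factor and SOX17, and genes overlapping a member. A few genes covered by the rule are not reported here; counts of their lists include them. Other genes were chosen after their values were seen. With 1 sample, no test and no likeness of pattern across samples was possible. Alternatives were limits of 0.5, 5 and 10 RPKM, pseudocounts of 0.1 and 1 RPKM, other backgrounds for percentiles, a minimum of 20 reads and each library alone; the 10 RPKM limit was added after the data were seen. Python 3.11.15, pandas 2.3.3 and matplotlib 3.10.9 were used.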

Additional observations from a re-analysis of the deposited data

How the results depend on the processing

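All 7 members were also detected at 0.5 RPKM and in each library alone, and 5 were at 5 RPKM and 2 at 10 RPKM. In library 2 alone all 7 kept their place in the order and in library 1 alone 5 did, FCGRT and AMN changing places. No ratio between partners changed direction. With a pseudocount of 1 RPKM the log2 ratio was -1.24 for CUBN over AMN, 0.27 for LRP2 over CUBN, 1.24 for LRP2 over DAB2 and 0.89 for ASGR2 over ASGR1. With 0.1 RPKM it was 0.30 for LRP2 over CUBN and 1.08 for ASGR2 over ASGR1. A pseudocount draws ratios of low genes toward 0 by construction. At a limit of 5 RPKM, 16 clathrin genes, 5 sialic acid enzymes, 6 other uptake receptors, 7 vitamin B12 genes and 3 mature hepatocyte markers were left, and 0 of the proximal tubule, ileal, macrophage and endothelial markers. Of all protein-coding genes, 35.4% reached 5 RPKM and 65.1% reached 0.5 RPKM. At 0.5 RPKM 7 proximal tubule markers were detected, and in single libraries 1 to 2, since SLC5A2 lies at the limit. The variance ratio of the libraries was 1.02 with 20 reads or more. Percentiles ran from 28.0 to 83.9 among protein-coding genes above the floor and from 80.1 to 95.2 among all genes, in place of 52.3 to 89.3. No paired analysis was possible because there was only 1 group. Counting error limits ASGR1 most, with about 91 reads in library 1.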
